A study of Homo sapiens with 24 samples.

Results

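The epithelial-mesenchymal state genes are a hand-picked group of 10 genes, out of 57500 genes listed, that serve in many laboratories as readouts of whether a carcinoma cell is in an epithelial or a mesenchymal state. They were found by matching their symbols in GENCODE release 29 to the Ensembl identifiers of the deposited raw counts: CDH1, EPCAM and GRHL2 on the epithelial side, CDH2, VIM and FN1 on the mesenchymal side, and the transcription factors SNAI1, SNAI2, ZEB1 and TWIST1. All 10 were found. No measured value entered the choice, although earlier results of these data were known when the group was drawn up.

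The libraries come from spheroids of 2 human head and neck squamous carcinoma lines, FaDu and SAS, grown for 4 days on agarose to a diameter of about 400 µm. Each line had an untreated control, X-irradiation (RT, at 7 Gy in the first line and 10 Gy in the second), hyperthermia (HT, 42.5 °C for 60 min) and hyperthermia followed by the same irradiation (HT+RT), and RNA was taken 0.5 h after treatment. Every one of the 8 conditions has 3 libraries from independent experiments, 24 in all, with 15203484 to 29452514 counts each. Because the radiation dose differs between the lines, a difference between them under RT or HT+RT cannot be told apart from one of dose, and each spheroid type stands for a single cell line.

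In an epithelium, E-cadherin from CDH1 joins neighbouring cells at adherens junctions, EPCAM adds a further adhesion molecule at the cell surface, and the transcription factor GRHL2 keeps junction genes switched on. During an epithelial-mesenchymal transition the factors of the SNAIL, ZEB and TWIST families bind E-box sequences in epithelial promoters and repress them, while N-cadherin from CDH2, the intermediate filament protein vimentin from VIM and the matrix protein fibronectin from FN1 increase. In squamous carcinomas of the head and neck many cells carry some features of both states, and SNAI2 is commonly present in cells that keep their junctions.

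Both lines carry the markers of squamous epithelium. The summed level of 8 squamous markers was 10600 CPM (counts scaled to library size) in FaDu control and 4370 CPM in SAS control, with KRT17 the most abundant in each and 0 of the 8 without counts. Among 5 endothelial markers the sums were 8.04 and 16.5 CPM in the controls, with CDH5 the most abundant (4.19 and 14.5 CPM) and KDR and TEK at or under 3 counts, and among 5 leukocyte markers 3.42 and 2.10 CPM, with CD68 the most abundant (1.78 CPM in each). The 9 fibroblast markers summed to 42.9 CPM in FaDu control, mostly COL1A1, and to 10.8 CPM in SAS control, mostly FAP. Their part in the results on COL1A1 was not tested, and DCN was at or under 3 counts in both controls and COL3A1 and THY1 in SAS control.

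The FaDu libraries numbered 1 lie apart from the other FaDu libraries. Within each FaDu condition, the squared differences between libraries came to 13.6 to 19.5 times counting error per gene (chi-square per gene) for pairs with library 1, and to 3.29 to 4.69 for libraries 2 and 3, where SAS pairs ran from 4.32 to 10.6. Without all of these FaDu libraries, an alternative chosen after seeing the data, the number of members altered was the same in each of the 11 comparisons that use FaDu. Where leaving them out moved a member across the adjusted p threshold, the value is given beside the result.

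The best known brake on ZEB1 and its relative ZEB2 is the miR-200 family, whose mature forms pair with the messenger RNAs of both through the seed, bases 2 to 8 from the 5′ end. Their sequences are shown because some hairpin genes of this family had more counts in heated libraries. The reference sequences were taken from RefSeq (GRCh38.p14), read on the plus strand at chr1:1167160-1167181, chr1:1169055-1169076, chr12:6963742-6963764, chr1:1167916-1167937 and chr12:6964155-6964176 in the order printed. Capitals mark the seed, AAUACUG in 3 of the 5 and AACACUG in 2, which differ at a single base.
miR-200b-3p: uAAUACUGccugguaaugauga
miR-429: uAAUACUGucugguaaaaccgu
miR-200c-3p: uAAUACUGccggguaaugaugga
miR-200a-3p: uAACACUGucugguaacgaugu
miR-141-3p: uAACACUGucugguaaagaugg

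The 2 members that separate the lines most are FN1 and VIM, and the 250 bases before their RefSeq transcription starts are shown as annotated promoter windows (GRCh38.p14, FN1 at chr2:215436069-215436318 on the minus strand, VIM at chr10:17227991-17228240 on the plus strand). Which starts these cells use was not measured. Capitals mark every match, on either strand, to the SNAIL and ZEB E-box CAGGTG or, read on the other strand, CACCTG, the cyclic AMP response element TGACGTCA, the GC box GGGCGG or, on the other strand, CCGCCC, and the AP-1 site TGANTCA.
FN1: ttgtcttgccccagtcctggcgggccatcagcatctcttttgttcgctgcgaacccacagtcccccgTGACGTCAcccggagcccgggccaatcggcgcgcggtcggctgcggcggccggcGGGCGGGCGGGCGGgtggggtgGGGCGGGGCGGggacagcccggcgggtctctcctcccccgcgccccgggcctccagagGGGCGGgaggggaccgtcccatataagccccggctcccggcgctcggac
VIM: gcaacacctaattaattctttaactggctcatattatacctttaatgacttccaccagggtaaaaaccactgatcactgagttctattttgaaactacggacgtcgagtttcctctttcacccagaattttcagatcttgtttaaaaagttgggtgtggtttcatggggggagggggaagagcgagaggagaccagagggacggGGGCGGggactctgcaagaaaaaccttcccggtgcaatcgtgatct
The FN1 window holds 1 cyclic AMP response element and 6 GC boxes, some of which overlap each other, and is 76.4% G and C. The VIM window holds 1 GC box and is 46.0% G and C. Neither has an E-box of that form or an AP-1 site. Of 34788 promoter windows of this length, 42.6% have a GC box, 17.5% the E-box, 6.59% an AP-1 site and 1.64% the response element. No binding was measured.

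The level of the epithelial members was high in both lines. EPCAM was the most abundant member per length in each control, at 53.7 CPM per kilobase of exon in FaDu and 114 CPM per kilobase in SAS. In FaDu control, CDH1 (26.1), GRHL2 (19.4), SNAI2 (8.24), TWIST1 (2.48), SNAI1 (1.40), CDH2 (0.848), FN1 (0.359), ZEB1 (0.0904) and VIM (0.0108 CPM per kilobase) followed, and no gene overlapped its neighbour in this order. In SAS control the order was FN1 (58.9), CDH1 (32.0), GRHL2 (18.5), SNAI2 (12.4), TWIST1 (2.51), SNAI1 (1.06), CDH2 (1.05), VIM (0.513) and ZEB1 (0.0395 CPM per kilobase). There SNAI1 and CDH2 overlap and cannot be ordered. E-cadherin exceeded N-cadherin in every condition, with mean ratios of CDH1 to CDH2, per length, from 23.9 to 37.2.

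**Figure D1:**
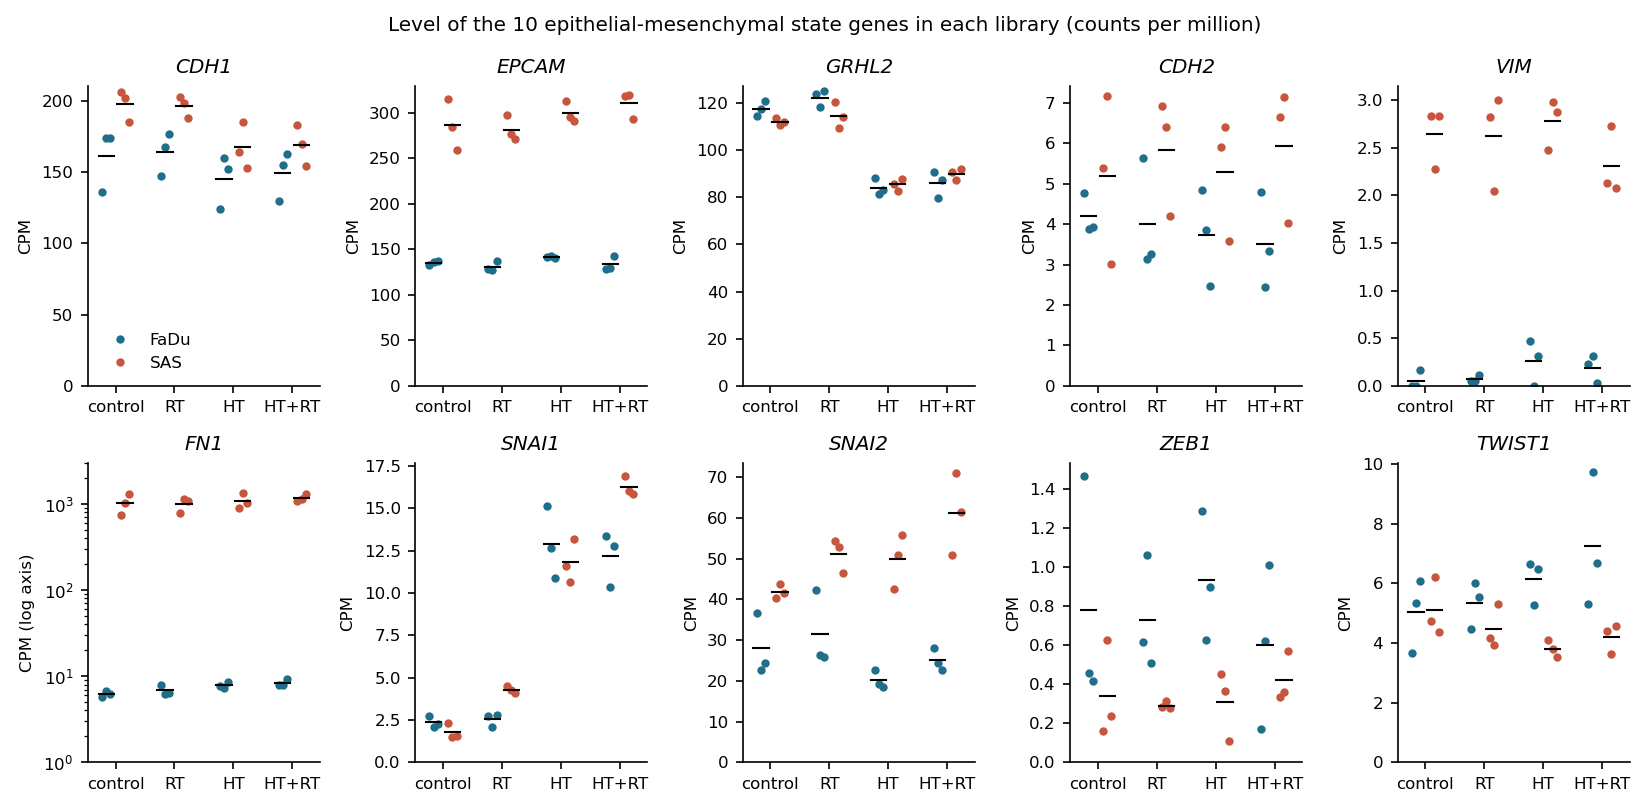
Levels of the 10 members in each of the 24 libraries (CPM, 1 panel per gene, log axis for FN1), with a bar at the mean of each condition. SNAI1 lies at 1.48 to 2.73 CPM in the control libraries of both lines and at 10.4 to 16.9 CPM in all heated ones, and FN1 at 5.67 to 9.18 CPM in FaDu against 735.5 to 1327 CPM in SAS.

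Among the members, untreated FaDu and SAS spheroids differed most in FN1 and VIM, while the third mesenchymal gene, CDH2, overlapped between them. Fibronectin RNA was abundant in SAS and scarce in FaDu: FN1 stood at 5.67, 6.72 and 6.25 CPM in the FaDu control libraries and at 735.5, 1017 and 1305 CPM in those of SAS. Every SAS library lies far above every FaDu library, in a 160-fold difference of the fitted levels. Vimentin RNA was low in SAS and close to absent in FaDu, with 52, 40 and 48 VIM counts in SAS control libraries and 0, 0 and 4 in FaDu control. The SAS libraries are all higher, and over the summed counts the SAS level was 41.4 times that of FaDu (95% counting interval 15.8 to 154). Without FaDu control library 3, which holds all 4 counts, it was at least 34.1 times higher (floor of 3 counts summed over the group). VIM-AS1, which overlaps VIM on the other strand, had 35 counts in all libraries, 2 of them in FaDu control and 7 in SAS control, and its reads may be among those of VIM. These are bulk libraries, in which fewer cells with a transcript and less of it per cell cannot be told apart.

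The adhesion molecule EPCAM was also lower in FaDu, at 132.8, 136.0 and 137.2 CPM against 314.9, 284.7 and 259.5 CPM in SAS. The groups do not overlap, and the highest of all 12 FaDu libraries (142.9 CPM) lies below the lowest SAS library (259.5 CPM). CDH1 reached 135.6, 173.6 and 173.5 CPM in FaDu control and 206.1, 201.5 and 184.8 CPM in SAS control, so that FaDu library 1 is lowest and the groups do not overlap.

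The usual filter on low counts (filterByExpr of edgeR) lets a gene in through 1 group alone, and a gene that is in only through the group where it is high had to differ. Between the lines this holds for VIM throughout and for ZEB1 under RT and HT, so these are given by their counts, with no test. With at least 10 counts in every library, 2 of 8 members tested by edgeR, FN1 and EPCAM, were altered between the untreated lines (adjusted p under 0.05 and a log2 difference beyond 1), against 28.4% of 12878 genes tested. The usual filter gave 3 of 9, VIM among them, against 38.1% of 15810 genes, and nothing is read from that count. With the usual filter the log2 differences, FaDu minus SAS, were -7.33 for FN1 (standard error, SE, 0.22, adjusted p = 7.63e-10) and -1.05 for EPCAM (SE 0.07, adjusted p = 3.03e-07), each lower in 3 of 3 FaDu libraries. Without SAS control library 1 EPCAM, at -0.99 (adjusted p = 2.6e-06), was short of the fold threshold. Of all genes 75.0% passed the adjusted p, those past the fold threshold included (74.6%, 73.2% and 75.2% under RT, HT and HT+RT). CDH1 at -0.26 (SE 0.09, adjusted p = 0.026) and SNAI2 at -0.56 (SE 0.15, adjusted p = 0.00693) were short of the fold threshold but passed the adjusted p. CDH1 lost that without SAS control library 1 (adjusted p = 0.076) or 2 (0.067) and with at least 10 counts in every library (-0.23, 0.051), and CDH2 (-0.28, adjusted p = 0.372) gained it without SAS control library 3 (-0.56, adjusted p = 0.031). SNAI1 (0.43, adjusted p = 0.157), TWIST1 (0.02, 0.949) and GRHL2 (0.10, 0.143) were past neither threshold, and ZEB1 had too few counts here to be tested.

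In the treated spheroids the line difference of FN1 kept its size, at -7.16 under RT, -7.06 under HT and -7.11 under HT+RT. EPCAM stood at -1.07, -1.05 and -1.21. VIM had 0 to 8 counts in each treated FaDu library. Summed counts put VIM in SAS at 33.2 (13.9 to 104), 11 (6.34 to 20.5) and 14.9 (7.84 to 31.8) times FaDu under RT, HT and HT+RT. Leaving out 1 FaDu library moved these to 49.9 (RT library 3), 17.7 or 7.16 (HT library 1 or 2) and 22.4 or 8.66 (HT+RT library 2 or 3). SNAI2, the SNAIL factor most expressed per length in both controls, joined the altered genes after heat. Its log2 difference was -0.67 under RT, -1.28 under HT (SE 0.12, adjusted p = 5.11e-06) and -1.29 under HT+RT (SE 0.12, adjusted p = 3.62e-06), lower in 3 of 3 FaDu libraries each time.

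ZEB1 was the rarest member in SAS control and had more counts in FaDu than in SAS under RT and HT. Its FaDu libraries had 28, 9 and 10 counts in control, 12, 20 and 13 under RT, 22, 12 and 17 under HT and 3, 10 and 31 under HT+RT. The SAS libraries had 3, 11 and 4, then 5, 6 and 5, then 8, 7 and 2, then 5, 7 and 11 in the same order. FaDu and SAS libraries overlap in control and HT+RT and are separate under RT and HT. Scaled to library size, FaDu had 2.21 (95% counting interval 1.26 to 4.04), 2.42 (1.34 to 4.59), 3.01 (1.71 to 5.56) and 1.60 (0.948 to 2.78) times the SAS level. The control ratio was 1.28 (0.638 to 2.59) without FaDu control library 1, 1.73 (0.950 to 3.33) without SAS control library 1 and 3.80 (1.71 to 9.96) without SAS control library 2. For HT+RT it was 0.907 (0.422 to 1.87) without FaDu HT+RT library 3, and for RT 1.91 (0.978 to 3.82) without FaDu RT library 2. The control ratio thus depends on FaDu library 1, and the direction under HT+RT on FaDu library 3. ZEB1-AS1, which overlaps ZEB1 on the other strand, had 892 counts in all libraries, 342% of those of ZEB1. It was itself higher in FaDu control than in SAS control (79, 61 and 66 counts against 18, 30 and 16, log2 1.48, SE 0.30, adjusted p = 0.000865), the direction of the ZEB1 ratio, and at 0.95 under RT (adjusted p = 0.0218). Under HT and HT+RT its summed counts were 145 against 37 and 175 against 33. Since the deposited description does not say whether counting used the strand, reads of this antisense gene may be among those of ZEB1, and their part in the ZEB1 ratios was not tested. The relative ZEB2 had 0 to 9 counts per library.

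In the line comparisons of treated spheroids, with at least 10 counts in every library, 2 of 8 members were altered under RT (EPCAM, FN1; background 29%), 3 of 8 under HT (EPCAM, FN1, SNAI2; 30.5%) and 3 of 8 under HT+RT (EPCAM, FN1, SNAI2; 30.3%). The shares lie close to those of all genes. The usual filter gave 4, 5 and 4 of 10 (38.7%, 40.1% and 40.4% of all genes), with VIM in each and ZEB1 under RT and HT, and nothing is read from those counts.

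TWIST1, a basic helix-loop-helix factor, ran from 3.67 to 9.74 CPM in the FaDu libraries, and in the SAS libraries from 3.52 to 6.21 CPM. The log2 difference was 0.72 under HT (adjusted p = 0.00464) and 0.79 under HT+RT (adjusted p = 0.0094), short of the fold threshold. CDH2 ran from 2.44 to 5.65 CPM in the FaDu libraries, and in the SAS libraries from 3.01 to 7.18 CPM, and its adjusted p under HT+RT (-0.75, 0.0299) was lost without FaDu HT+RT library 2 (0.099) or 3 (0.086) and without SAS HT+RT library 1 (0.091) or 2 (0.12). Without the FaDu libraries numbered 1, CDH2 passed the adjusted p under RT (-0.82, 0.0074) and HT (-0.69, 0.040) as well, as it did without SAS RT library 3 (-0.72, 0.037) and SAS HT library 3 (-0.72, 0.043). Under RT it also passed with no filter (-0.52, 0.026) and with the block (-0.52, 0.046), although libraries of the same number correlated there at r of 0.008 to 0.045. CDH1, at -0.23 under RT (0.0197), lost it without FaDu RT library 1 (-0.14, 0.065) or SAS RT library 1 (-0.21, 0.063), and at -0.17 under HT+RT (0.117) gained it without SAS HT+RT library 3 (-0.25, 0.049) and with no filter (-0.18, 0.049). With no filter it also passed under HT (-0.21, 0.038). SNAI1 was lower in FaDu under RT (-0.71, SE 0.19, adjusted p = 0.00717) and HT+RT (-0.41, SE 0.12, 0.00953) and at 0.16 under HT (0.354), short of the fold threshold in each. GRHL2, at 0.13 under RT (edgeR adjusted p = 0.0764), passed the adjusted p with at least 10 counts in every library (0.16, 0.028).

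**Figure D2:**
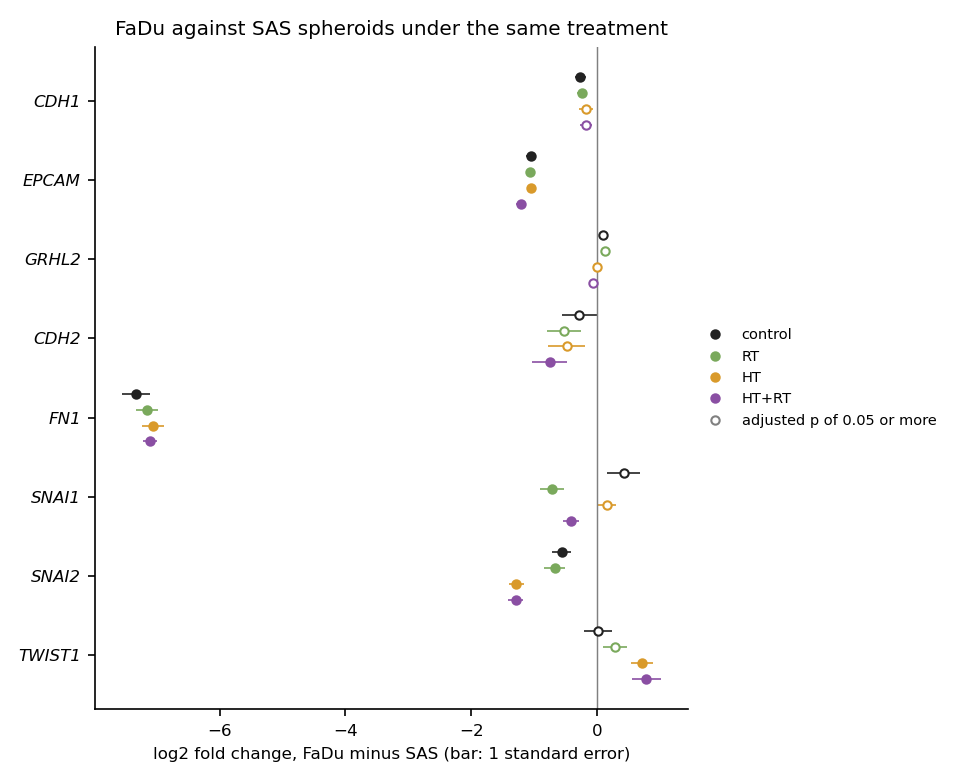
Log2 difference between the lines, FaDu minus SAS, of the 8 members other than VIM and ZEB1 in control, RT, HT and HT+RT spheroids, with bars of 1 SE and filled points where the edgeR adjusted p was under 0.05. FN1 sits between -7.33 and -7.06 in the 4 conditions, and EPCAM between -1.21 and -1.05.

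Radiation alone gave no altered member by edgeR at this early time. In FaDu, SNAI1 had 2.73, 2.09 and 2.27 CPM in control and 2.72, 2.08 and 2.83 CPM under RT, and the libraries interleave. In SAS it had 2.34, 1.48 and 1.53 CPM in control and 4.51, 4.25 and 4.11 CPM under RT. All 3 irradiated SAS libraries lie above all 3 controls, in a 2.39-fold difference, but the edgeR test did not pass (log2 1.26, SE 0.22, adjusted p = 0.103). A fit with the block of replicate numbers did pass (1.27, adjusted p = 0.00174), as it did by DESeq2 (1.27, 0.0081), with all 8 groups in 1 fit (1.26, 0.010) and with no filter on low counts (1.26, 8.2e-05). With at least 10 counts in every library SNAI1 did not pass the adjusted p. Leaving out each of the 6 libraries in turn gave 0 altered members. SNAI1 ranked 34 of 14680 genes from the highest log2 difference. The exact permutation test gave a two-sided p of 0.1, the smallest that 3 against 3 libraries allow.

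With edgeR, 0 of 9 members tested were altered by RT in FaDu (background 0.00643%; 0 at an unadjusted p under 0.05, 0 by DESeq2, 0 with the block), and 0 of 9 in SAS (background 0.0272%; 2 at an unadjusted p under 0.05, 1 by DESeq2, 1 with the block, where the background was 0.17%). Of all genes tested, 791 of 15552 in FaDu and 834 of 14680 in SAS were at that unadjusted p. DESeq2 gave 10 altered genes in SAS. The other SAS member below that unadjusted p was SNAI2 at 0.29 (adjusted p = 0.491; 0.29 and 0.0261 with the block), higher in 3 of 3 libraries. The difference between the lines in the SNAI1 response to RT was -1.14 (FaDu minus SAS, SE 0.31, adjusted p = 1.0). No member was altered in that interaction by edgeR, 0 of 10, against 0.0% of genes (1 at an unadjusted p under 0.05, 0 by DESeq2, 0 with the block). At that unadjusted p were 460 of all 16811 genes.

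Heat raised SNAI1, the fast-turnover zinc-finger repressor of CDH1, in both lines. In FaDu it went from 2.73, 2.09 and 2.27 CPM in control to 15.1, 12.7 and 10.9 CPM under HT and 13.4, 10.4 and 12.7 CPM under HT+RT. SAS went from 2.34, 1.48 and 1.53 CPM to 11.6, 10.6 and 13.2 CPM under HT and 16.9, 16.0 and 15.9 CPM under HT+RT. No heated library of either line overlaps a control, and the lowest heated library (10.4 CPM) lies far above the highest control (2.73 CPM). The fitted rise was 5.54-fold and 5.23-fold in FaDu and 6.72-fold and 9.37-fold in SAS, for HT and HT+RT. HT and HT+RT of a line share their controls.

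The log2 changes of SNAI1 by edgeR were 2.47 (SE 0.18, adjusted p = 6.11e-05) and 2.39 (SE 0.16, 2.55e-05) in FaDu, and 2.75 (SE 0.19, 1.08e-06) and 3.23 (SE 0.17, 9.7e-08) in SAS, higher in 3 of 3 libraries each. With the replicate number as a block they were 2.46 (3.65e-09) and 2.39 (6.46e-13) in FaDu and 3.24 (6e-14) for HT+RT in SAS. Without the FaDu libraries numbered 1 the FaDu changes were 2.46 and 2.44. Among all genes tested SNAI1 ranked 234 of 15879 and 282 of 15896 in FaDu and 229 of 15000 and 167 of 14938 in SAS from the highest.

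The epithelial factor GRHL2 moved the other way by a smaller amount. FaDu libraries had 114.5, 117.4 and 120.6 CPM in control, 88.1, 81.4 and 82.9 CPM under HT and 90.7, 79.6 and 87.5 CPM under HT+RT. SAS libraries had 113.6, 110.7 and 112.0 CPM, then 85.7, 82.6 and 87.9 CPM, then 90.6, 87.2 and 92.0 CPM. Every heated library of both lines is below every control library. The log2 differences by edgeR were -0.46 (SE 0.06, adjusted p = 0.00118) and -0.43 (SE 0.06, 0.00177) in FaDu and -0.36 (SE 0.06, 0.000812) and -0.27 (SE 0.06, 0.00459) in SAS, past the adjusted p and short of the fold threshold, with block values of -0.46, -0.43 and, for SAS HT+RT, -0.27. RT alone gave 0.06 in FaDu and 0.03 in SAS.

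E-cadherin and EPCAM RNA passed neither threshold with heat by edgeR. CDH1 in SAS went from 206.1, 201.5 and 184.8 CPM to 164.2, 185.2 and 152.9 CPM under HT and 182.7, 169.6 and 154.0 CPM under HT+RT. The HT group overlaps the controls through its library 2, and the HT+RT group lies wholly below them. The log2 values were -0.21 (edgeR adjusted p = 0.0672) and -0.18 (0.0908), and with the block -0.18 (0.00541) for HT+RT, below control in 3 of 3 libraries. For HT the adjusted p passed without SAS control library 3 (-0.25, 0.038) or SAS HT library 2 (-0.28, 0.028), with the block (-0.21, 0.0103) and with no filter (-0.22, 0.013), and for HT+RT with no filter (-0.20, 0.022) and without SAS control library 3 (-0.22, 0.042) or SAS HT+RT library 1 (-0.24, 0.046). In FaDu, CDH1 was at -0.12 under HT (adjusted p = 0.554; block 0.0557) with overlapping groups. EPCAM reached 0.17 in SAS HT+RT (adjusted p = 0.089; block 0.17, 0.00445; without SAS control library 1 0.23, 0.037).

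SNAI2, which shares the zinc fingers and the E-box target of SNAI1, was not higher in heated FaDu spheroids. Its levels there were 36.8, 22.6 and 24.5 CPM in control, 22.7, 19.1 and 18.5 CPM under HT and 28.0, 24.4 and 22.7 CPM under HT+RT. Library 1 is the highest of each group, and the heated groups overlap the control. SAS had 40.4, 43.8 and 41.6 CPM in control, 42.5, 51.0 and 55.9 CPM under HT and 51.0, 71.0 and 61.4 CPM under HT+RT, where HT overlaps control and HT+RT lies above it. In SAS HT+RT the log2 difference was 0.60 (SE 0.10, edgeR adjusted p = 0.00143; block 0.59, 2.99e-07), higher in 3 of 3 libraries. SAS HT gave 0.28 (adjusted p = 0.0506), and passed with no filter (0.022), with at least 10 counts in every library (0.047), with the block (0.0123), by DESeq2 (0.047) and without SAS HT library 1 (0.37, 0.011). FaDu HT gave -0.45 (adjusted p = 0.122; block -0.43, 0.00259; no filter -0.48, 0.00092; without the FaDu libraries numbered 1 -0.29, 0.031), and FaDu HT+RT -0.14 (adjusted p = 0.639).

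Of VIM, FN1, CDH2, ZEB1 and TWIST1 none was altered with heat by edgeR where it was tested, and FN1 alone passed the adjusted p, in FaDu HT+RT. FN1 in FaDu went from 5.67, 6.72 and 6.25 CPM in control to 7.88, 7.87 and 9.18 CPM under HT+RT, with no overlap, at a log2 value of 0.44 (SE 0.14, edgeR adjusted p = 0.0496; block 0.45, 0.0104). That call was lost without FaDu control library 1 (0.38, 0.11), 2 (0.50, 0.075) or 3 (0.44, 0.14) and without FaDu HT+RT library 2 (0.48, 0.093) or 3 (0.37, 0.20), by DESeq2 (0.45, 0.072), with no filter (0.43, 0.076) and with all 8 groups in 1 fit (0.43, 0.19). Under FaDu HT, FN1 had 7.77, 7.21 and 8.55 CPM, also above all controls. It was past neither threshold there (0.36, edgeR adjusted p = 0.124, and 0.36, 0.0537 with the block). In SAS HT+RT FN1 stood at 0.24 (adjusted p = 0.317; block 0.27, 0.00208; no filter 0.22, 0.00019; without SAS control library 3 0.46, 0.013). VIM counts in SAS were 52, 40 and 48 in control, 44, 57 and 53 under HT and 32, 53 and 40 under HT+RT, with overlapping groups, and in FaDu 8, 0 and 6 under HT and 4, 5 and 1 under HT+RT, too few to test. TWIST1 in FaDu HT+RT was at 0.53 (adjusted p = 0.19; block 0.51, 0.0114; no filter 0.52, 0.035; without the FaDu libraries numbered 1 0.49, 0.028). In SAS it was at -0.39 under HT (adjusted p = 0.177), with all 3 heated libraries below the controls, and at -0.23 under HT+RT, with overlap. The interactions of line with HT and HT+RT were 0.72 (adjusted p = 0.194) and 0.80 (0.201). CDH2 and ZEB1 overlapped control in each heated group of a line where they were tested.

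**Figure D3:**
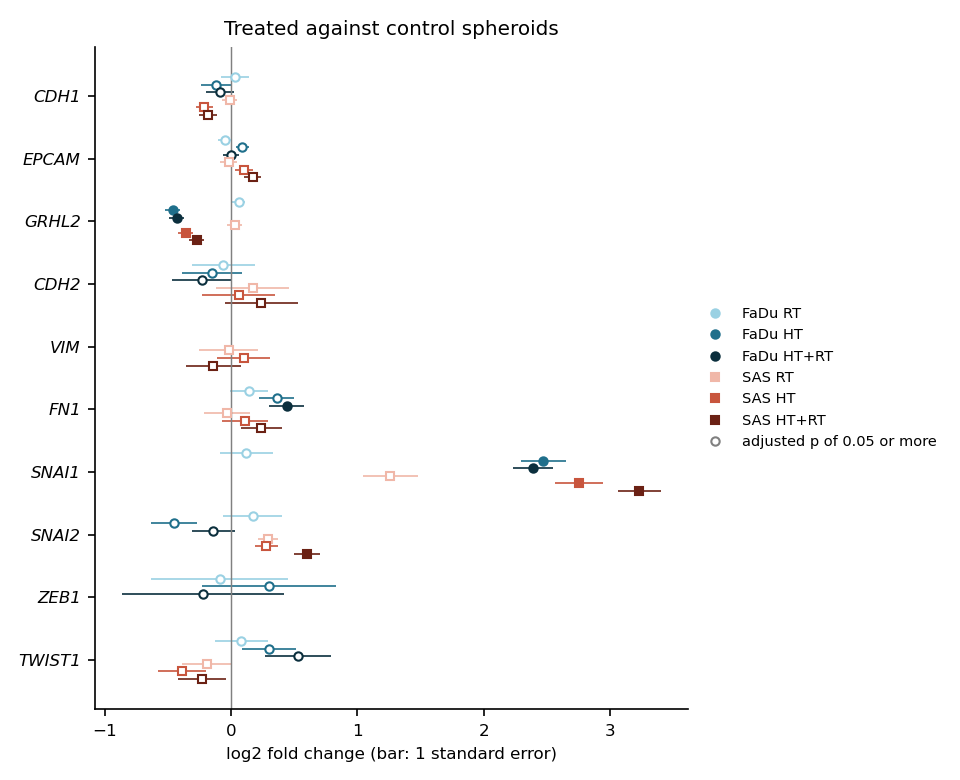
Log2 difference from the control of the same line for each member tested under RT, HT and HT+RT, with bars of 1 SE and filled points where the edgeR adjusted p was under 0.05. SNAI1 lies at 2.39 to 3.23 in the 4 heated comparisons and GRHL2 at -0.46 to -0.27.

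Counted over the group, 1 of 9 members tested was altered in each heated comparison, SNAI1 each time, where 4.97% (FaDu HT), 5.72% (FaDu HT+RT), 6.03% (SAS HT) and 6.36% (SAS HT+RT) of all genes tested were. At the adjusted p alone the counts were 2, 3, 2 and 3 of 9, against 17.6%, 19.3%, 23.6% and 25.1%. With the block the adjusted p passed for more genes, 32.7% in FaDu HT, 32.9% in FaDu HT+RT and 35.5% in SAS HT+RT, and for 1.96% in SAS RT and 0.906% in SAS HT+RT against HT. In SAS HT it passed with the block for 4413 of 15000 genes. For the interaction of line with HT+RT these were 1511 of 17219, and for FaDu RT against SAS RT 11813 of 16030. Adding RT to HT gave 0 of 9 members altered by edgeR in FaDu (background 0.0%; 1 at an unadjusted p under 0.05, 0 by DESeq2, 0 with the block) and 0 of 9 in SAS (background 0.0%; 2, 0 and 0). At that unadjusted p were 361 of all 16145 genes in FaDu and 673 of 15341 in SAS. SNAI1 was 0.47 higher on the log2 scale in SAS HT+RT than in SAS HT (SE 0.11, adjusted p = 0.42; block 0.48, 0.0346), with all 3 HT+RT libraries above all 3 HT libraries, and at -0.09 in FaDu (adjusted p = 1.0). SNAI2 was at 0.31 in SAS (adjusted p = 0.988; block 0.31, 0.0269), with overlapping groups.

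The test of a difference between the lines in the heat response passed for 0 of 10 members under HT by edgeR (background 2.74%; 2 at an unadjusted p under 0.05, 0 by DESeq2, 0 with the block) and for 0 of 10 under HT+RT (background 3.4%; 3, 0 and 0), at the fold threshold of 1. Of all genes tested, 2966 of 17219 under HT and 3306 of 17219 under HT+RT were at that unadjusted p. SNAI1 had -0.25 under HT (FaDu minus SAS, adjusted p = 0.736) and -0.81 under HT+RT (SE 0.25, adjusted p = 0.0658). The HT+RT value passed the adjusted p by DESeq2 (0.039), with the block (-0.82, 0.0321), with all 8 groups in 1 fit (-0.86, 0.031), without FaDu HT+RT library 1 (-0.92, 0.042) and without SAS control library 1, where it also passed the fold threshold (-1.10, 0.017). SNAI2 had -0.70 under HT (SE 0.22, adjusted p = 0.0767) and -0.71 under HT+RT (adjusted p = 0.0692). DESeq2 gave adjusted p of 0.034 and 0.031, and the fit with no filter on low counts 6.3e-05 and 2.9e-05. Without the FaDu libraries numbered 1 SNAI2 had -0.55 (0.035) and -0.55 (0.041), and single libraries whose removal brought it under 0.05 were FaDu control 2 (-0.83, 0.040 and -0.83, 0.037), the heated FaDu library 1 (-0.83, 0.032 and -0.84, 0.031) and the heated SAS library 1 (-0.85, 0.043 and -0.87, 0.034). GRHL2 had -0.07 (0.754) and -0.13 (0.435).

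The balance within the SNAIL family shifted with heat. Per length, the ratio of SNAI2 to SNAI1 was 6.70, 5.38 and 5.38 in the FaDu control libraries and 0.747, 0.752 and 0.845 under HT, then 1.04, 1.17 and 0.885 under HT+RT. SAS had 8.58, 14.7 and 13.5 in control, 1.82, 2.38 and 2.11 under HT and 1.50, 2.20 and 1.93 under HT+RT. In FaDu HT the libraries all lie below 1, in FaDu HT+RT on both sides of it, and in SAS all stay above it. RT alone gave means of 6.19 (SD 1.58) in FaDu and 5.93 (SD 0.291) in SAS, the latter below each of the 3 SAS controls. The levels per length of SNAI1 and SNAI2 overlap in FaDu HT (7.64 and 5.93 CPM per kilobase) and HT+RT (7.21 and 7.37).

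**Figure D4:**
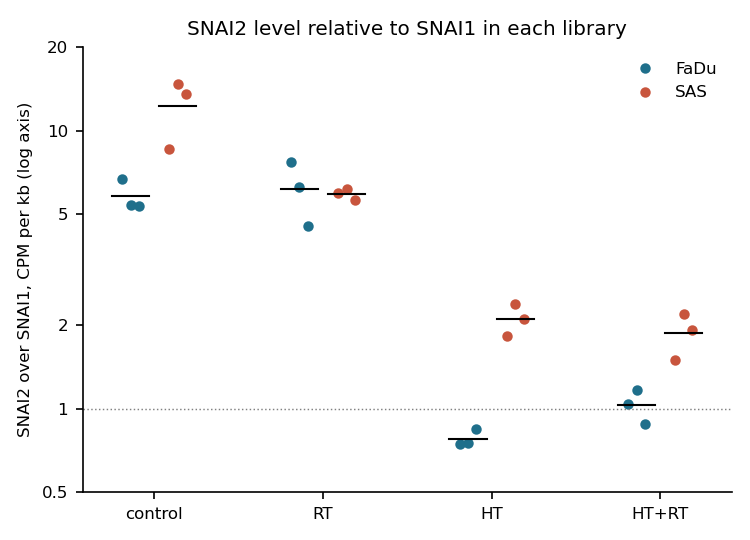
Ratio of SNAI2 to SNAI1, each in CPM per kilobase of exon, in every library of the 8 conditions (log axis), with a dotted line at 1. The mean is 5.82 in FaDu control and 0.781 in FaDu HT, and 12.3 in SAS control and 2.11 in SAS HT.

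Across the 24 libraries, with each line centred on its own mean, the genes most like SNAI1 among 15803 were FAM43A (Pearson r = 0.966), RASD1 (0.966), a small GTPase, and IER5 (0.961), an immediate early gene. The libraries fall into heated and unheated ones and share their lines and treatments, so these values describe the heat response and carry no test. FAM43A averaged 1.34 CPM in FaDu control and 10.6 CPM under HT, RASD1 0.292 and 6.48 CPM, and IER5 46.3 and 658 CPM. In SAS the means were 4.56 and 40.2 CPM, 0.0771 and 2.50 CPM, and 193 and 1764 CPM. Among the other members r was -0.883 for GRHL2, -0.616 for CDH1, 0.514 for EPCAM, 0.435 for FN1 and 0.292 for VIM. It was 0.042 for ZEB1, 0.013 for SNAI2, 0.012 for TWIST1 and -0.0 for CDH2.

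The wider gene lists set the members against their pathways. Counts over a list are with at least 10 counts in every library compared, unless the usual filter is named. Named genes short of that number are given by their counts, with no test. The exceptions are BMP4 and HSPA6 among the results flagged for a closer look, whose tests used the usual filter. Between the lines the counts stand against the 28.4% of all genes altered, and the shares of the junction list (9 of 29) and the polarity list (11 of 30) lie near it. Between untreated lines, of the mesenchymal matrix and cytoskeleton genes, 35 tested among 48 listed, 20 were altered lower in FaDu and 5 higher, with a median log2 difference of -1.61 where all genes had 0.0. SPARC, a secreted collagen-binding protein, had 0, 3 and 3 counts in FaDu control and 15345, 14593 and 12241 in SAS control, 8310 times higher in SAS (95% counting interval 3820 to 22600). The gelatinase gene MMP2 had 15, 9 and 8 counts against 753, 716 and 856 (85.9 times, 60.7 to 126), and CDH13, an anchored cadherin, 38, 3 and 4 against 1638, 1559 and 1573. COL6A3, a chain of collagen VI, had 0 counts in FaDu control and 384 in SAS control, at least 151-fold lower (floor of 3 counts summed over the group, counting error only). In treated FaDu spheroids COL6A3 had 6 counts under RT, 16 under HT and 3 under HT+RT. SAS was 79.8 (36.4 to 219), 30.9 (18.8 to 54.5) and 161 (54.5 to 782) times higher there. The list was not one-directional. COL1A1, a chain of collagen I, was higher in FaDu, at 41.9 against 1.33 CPM (log2 5.01, SE 0.19, adjusted p = 3.07e-09), as was MYL9 (26.4 against 2.54 CPM). The fibrillin gene FBN1 had 75, 94 and 133 counts against 0, 4 and 1, and the stromelysin gene MMP10 2892 summed counts against 1 (a ratio of 2450 with a counting interval of 439 to 96700). The MMP10 ratio was smaller in treated spheroids, where SAS had 14, 20 and 17 counts under RT, HT and HT+RT. It was 185 (110 to 339), 128 (82.8 to 210) and 147 (91.8 to 253) in that order.

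Of 22 genes of signals that induce the transition, 18 were tested, with 7 altered lower in FaDu and 4 higher (median -0.53). TGFB2 had 8, 5 and 3 counts in FaDu and 1490, 1651 and 1100 in SAS, 313 times higher there (193 to 549). The activin subunit gene INHBA averaged 4.67 CPM in FaDu and 111 CPM in SAS, and BMP7 67.2 and 9.56 CPM. SMAD4, the shared partner of the signalling SMADs, had 0 counts in FaDu control and 2873 in SAS control, at least 1130-fold lower. Among 13 further transcription factors tested, 4 were altered lower (HMGA2 16.1 against 123 CPM, ETS1 29.8 against 213 CPM) and 3 higher, with a median of -0.24. GSC had 84, 114 and 128 counts in FaDu against 1, 4 and 3 in SAS (34.5 times, 17.3 to 80.5).

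Of 29 junction genes tested, 5 were altered higher and 4 lower in FaDu (median 0.16), the desmosomal genes DSP (887 against 341 CPM), DSG3 (114 against 37.8 CPM) and DSC3 (208 against 58.0 CPM) among the higher, and the tight junction genes CLDN1 (244.5 against 845 CPM) and OCLN (13.9 against 38.0 CPM), CTNNB1, the cytoplasmic partner of cadherins (359 against 1022 CPM), and CDH3 for P-cadherin (179 against 400 CPM) lower. The tight junction scaffold gene TJP3 had 245, 560 and 651 counts against 13, 4 and 4. For epithelial polarity and identity genes 7 were higher and 4 lower of 30 (median 0.33), with FOXA1 at 41.5 against 2.90 CPM, the membrane protease gene PRSS8 at 52.3 against 2.15 CPM, and the splicing factor gene ESRP2 at 39.8 against 104 CPM. Squamous markers were altered higher for 4 of 8 (KRT14, KRT17, KRT5, KRT6A) and lower for EPCAM. Of the other marker lists, 4 genes were tested: COL1A1, altered higher, CDH5, altered lower, and 1 more endothelial and 1 leukocyte gene, neither altered by edgeR. Under RT, HT and HT+RT the medians of the mesenchymal list were -1.75, -1.66 and -1.71.

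Radiation alone altered 0 genes of these 5 lists by edgeR in either line, with the usual filter. At an unadjusted p under 0.05 there were 1 of 30 junction, 0 of 30 polarity, 2 of 16 transcription factor, 1 of 41 mesenchymal and 4 of 19 signal genes in FaDu, where 791 of all 15552 genes tested were. In SAS the counts were 1 of 29, 1 of 30, 1 of 15, 0 of 40 and 2 of 22, beside 834 of 14680, with 0 altered by DESeq2 and 0 with the block in every list.

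The list counts after heat stand against the 3.23%, 3.38%, 3.76% and 4.08% of all genes altered in FaDu HT, FaDu HT+RT, SAS HT and SAS HT+RT, and against 17.0%, 17.7%, 22.6% and 24.4% at the adjusted p alone, each with at least 10 counts in every library. In FaDu the mesenchymal list held no altered gene after heat, also with the usual filter, where 0 of 41 tested were altered under HT by edgeR (3 at an unadjusted p under 0.05, 0 by DESeq2, 1 with the block) and 0 of 41 under HT+RT (4, 0 and 1). With at least 10 counts in every library it was 0 of 39 by edgeR in each (3 and 5 at an unadjusted p under 0.05), with medians of 0.10 and 0.12. At that unadjusted p were 4431 of all 14336 genes under HT and 4506 of 14311 under HT+RT. With the usual filter it was 4885 of 15879 and 5081 of 15896. In SAS 1 of 39 was altered in each, COL1A1, and at the adjusted p alone 4 were higher and 5 lower under HT and 3 and 5 under HT+RT (medians 0.05 and 0.04). COL1A1 had 22, 17 and 31 counts in SAS control and 542, 313 and 442 under HT, all heated libraries far above the controls (log2 4.18, SE 0.28, adjusted p = 6.35e-07; HT+RT 4.23, SE 0.18, 1.18e-08, block 4.29e-16). In FaDu HT it was at 0.39 (adjusted p = 0.0873; block 0.000943), and the test of the difference between the lines gave -3.76 (adjusted p = 1e-05). The sum of the 9 fibroblast markers went with it from 9.95, 11.3 and 11.2 CPM in SAS control to 43.1, 27.9 and 35.3 CPM under HT, COL1A1 making up most of it, while COL3A1, DCN and THY1 stayed at or under 3 counts and COL1A2, the other chain of collagen I, had 1, 0 and 3 counts in control and 3, 7 and 3 under HT. FAP, the most abundant of them in SAS control, had 460 summed counts there, 581 under HT and 604 under HT+RT. At the adjusted p alone 1 of 2 fibroblast markers tested was higher in SAS HT and 2 of 2 in SAS HT+RT.

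Of the inducing signals 3 of 18 were altered in FaDu under HT and 3 of 18 under HT+RT, all upward (IL6, HBEGF and SMAD7). At the adjusted p alone 3 were higher and 4 lower under HT (median -0.05) and 4 and 2 under HT+RT (-0.03). IL6, an inflammatory cytokine, had 1.57, 1.02 and 1.05 CPM in FaDu control and 25.0, 25.8 and 33.9 CPM under HT, with no overlap (log2 4.57, SE 0.21, adjusted p = 3.32e-06; HT+RT 4.98, 3.26e-07). The EGF family ligand gene HBEGF rose by 1.68 (24.2 to 76.0 CPM) and SMAD7, an inhibitory SMAD, by 1.36 on the log2 scale, in 3 of 3 libraries each. IL11 had 22, 6 and 9 counts in FaDu control and 79, 40 and 59 under HT, and BMP4, chosen after its values were seen, 6, 4 and 15 and then 30, 28 and 31. In SAS 3 of 21 rose under HT, namely BMP4, a bone morphogenetic protein, from 1.68 to 35.9 CPM (log2 4.45, SE 0.18, adjusted p = 6.66e-09), IL6 from 3.22 to 15.5 CPM (2.30, 2.28e-05) and IL11 from 11.1 to 36.2 CPM (1.74, 1.67e-06). HT+RT gave 4 of 21, with INHBA in addition (1.07, adjusted p = 3.76e-05, and 0.085 with all 8 groups in 1 fit). At the adjusted p alone 5 were higher and 3 lower in SAS HT (median 0.03) and 6 and 3 in SAS HT+RT (0.05).

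On the epithelial side, the factor OVOL1, known as a repressor of ZEB1, rose in both lines. FaDu had 9.97, 10.8 and 10.0 CPM in control and 76.3, 72.6 and 71.3 CPM under HT, and SAS 12.8, 12.1 and 9.55 CPM in control and 33.0, 33.2 and 33.7 CPM under HT. The heated libraries are separate from the controls in each line (log2 change 2.86, SE 0.08, adjusted p = 1.02e-07 in FaDu; 1.57, SE 0.11, 1.02e-06 in SAS; HT+RT 3.03 and 1.67). The rise was larger in FaDu by 1.32 under HT in the test of the difference (adjusted p = 2.8e-05). In FaDu, 2 of 29 polarity and identity genes rose under HT (OVOL1 and PARD6B, a polarity protein gene, 9.88 to 23.7 CPM) and 2 of 29 under HT+RT. In SAS it was 1 of 30 under HT and 4 of 30 under HT+RT, where KLF4 (1.14), MUC1 (1.02) and FOXA1 (1.01) came with OVOL1. Of 30 junction genes in FaDu 1 was altered in each heated comparison, CLDN4 (93.6 to 193 CPM under HT, log2 1.07, adjusted p = 0.0003; HT+RT 1.09). In SAS 0 of 29 were altered by edgeR under HT (12 at an unadjusted p under 0.05) and 0 of 29 under HT+RT (13). At that unadjusted p were 4798 of all 13606 genes tested under HT and 4881 of 13544 under HT+RT. TJP3, which is short of 10 counts in SAS control libraries 2 and 3 and was chosen after its values were seen, had 13, 4 and 4 counts there, 33, 26 and 33 under HT and 24, 20 and 33 under HT+RT. With the usual filter, which lets it in under heat, edgeR, DESeq2 and the block each gave 1 altered junction gene in SAS HT and in SAS HT+RT. At the adjusted p alone, 1 junction gene was higher and 5 were lower in FaDu HT, 1 and 5 in FaDu HT+RT, 3 and 4 in SAS HT and 7 and 3 in SAS HT+RT. Medians of this list were -0.10 and -0.04 in FaDu and -0.04 and -0.01 in SAS. For the polarity and identity list the counts were 4 higher and 3 lower, 4 and 3, 8 and 2, and 10 and 2 in the same order.

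Of further transcription factors of the transition 1 of 14 rose in FaDu, both under HT and under HT+RT: SOX9 from 15.8 to 39.6 CPM (log2 1.36, SE 0.22, adjusted p = 0.00389; HT+RT 1.60). In SAS 1 of 13 rose, FOXQ1 from 6.87 to 16.9 CPM (1.33, SE 0.19, 0.000352; HT+RT 1.33). FOXC2 had 31, 14 and 9 counts in FaDu control and 276, 188 and 222 under HT, and in SAS, where it was chosen after its values were seen, 15, 4 and 9 and then 64, 61 and 66. As a check on the heating itself, 5 of 5 heat shock genes rose in each heated comparison, with medians of 4.82 and 4.90 in FaDu and 4.24 and 4.32 in SAS, and HSPA6 went from 10, 10 and 7 counts in FaDu control to 67271, 80979 and 94557 under HT. Of the heat shock genes HSPA1A and HSPA1B are nearly identical in sequence, so their reads may be shared between them.

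**Figure D5:**
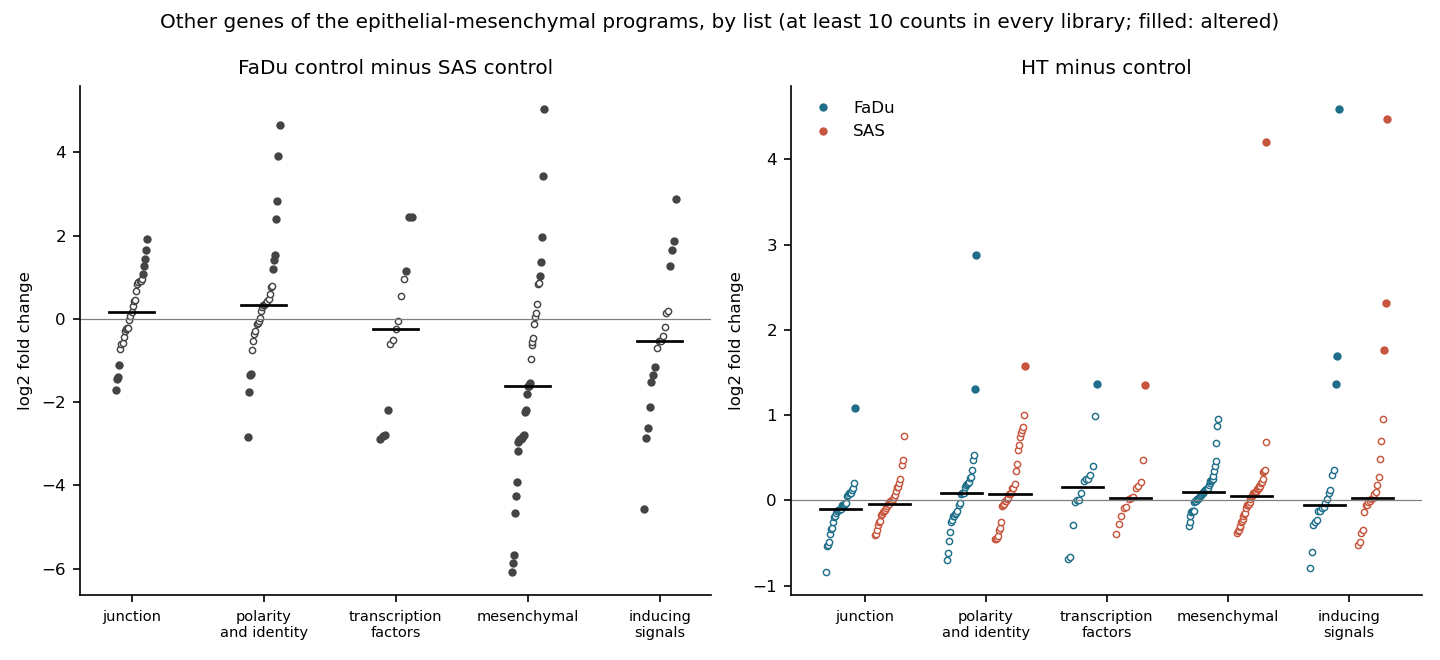
Log2 differences of the genes in each list, FaDu minus SAS in the controls and HT minus control in each line, with at least 10 counts in each library compared, filled points for altered genes and a black line at the list median. The mesenchymal list has its median at -1.61 between the lines and at 0.10 (FaDu) and 0.05 (SAS) after heat.

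Some hairpin genes of the miR-200 family also had more counts after heat. MIR429 had 1, 13 and 9 counts in SAS control and 98, 60 and 48 under HT, and 5, 7 and 10 in FaDu control and 24, 17 and 16 under HT. MIR200A went from 4, 7 and 7 to 48, 25 and 30 counts in SAS and MIR200B from 4, 0 and 1 to 31, 20 and 30. The heated libraries of these genes lie above the controls in SAS throughout. FaDu MIR429, and MIR200A and MIR200B in SAS, lie outside the rule for named genes and were chosen after their values were seen. Of 12 listed antisense and host genes, 5 passed the filter on low counts in SAS HT and 2 in SAS RT. The hairpin genes passed it through the heated libraries, so that their counts are given without a test. MIR200C and MIR141, at the other locus, had 0 to 6 counts per library. Their host gene MIR200CHG had 1000 counts in all libraries and did not rise in heated SAS spheroids. With at least 10 counts in every library it was at -0.24 in SAS HT and -0.31 in SAS HT+RT, past neither threshold by edgeR. Counts over a hairpin gene do not measure the mature forms whose seeds were given. ZEB1 and ZEB2 had few counts in all conditions, ZEB1 with 3 to 31 per FaDu library and 2 to 11 per SAS library.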

How the data were processed

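RNA sequencing counts of 24 spheroid libraries (8 conditions, 3 libraries each) were used. Per the labels, total RNA was prepared with the RNeasy Mini kit, libraries with NEBNext Ultra II Directional chemistry, and reads came from an Illumina NovaSeq through bcl2fastq. The deposited values are raw read counts per Ensembl gene, supplied by the authors in 7 tables whose repeated control columns are identical (18 columns). The labels name a mouse genome build (mm 9) while the gene identifiers are human, and do not say whether counting used the strand. Library totals ran from 15203484 to 29452514 counts (median 18378943). Of 57500 genes, 602 were not in GENCODE release 29, with 0.0217% of counts. The members and gene lists were chosen with earlier results of these data known.

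Each comparison was fitted to the counts of its own groups with edgeR 4.0.16 (TMM, filterByExpr with a minimum count of 10, quasi-likelihood test, Benjamini-Hochberg over all genes tested) in R 4.3.3 with limma 3.58.1, after the fit had been tested on simulated data. The study's authors set thresholds of 0.05 for the adjusted p and 1 for the size of the log2 fold change, and a gene past both is called altered. Each treatment was compared with control and HT+RT with HT, within a line, and FaDu with SAS in each condition. With the interaction of line and each treatment this gives 15 comparisons. Levels are CPM (counts scaled to library size by the cpm function of edgeR) with TMM over all libraries, between genes per kilobase of the union of exons. Log2 CPM used a prior count of 2. Standard errors are the log2 fold change over the root of F. Counting intervals are 95% exact conditional binomial, the floor is 3 counts summed over a group, and ratios under counting error ignore variation between spheroids. Permutation tests over 3 against 3 libraries used scipy 1.17.1 (Python 3.11.15) and cannot go under 0.1, two-sided. Plots were drawn with matplotlib 3.10.9.

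From each list and comparison, the altered genes with the 4 highest and 4 lowest log2 fold changes were named if the average log2 CPM was at least 1 and the groups did not overlap. For SNAI1, the 3 genes with the highest correlation were named, among those with at least 10 counts in at least 12 libraries. Genes outside this rule are marked in the text. The lists hold junction (30), polarity and identity (30), further transcription factor (20), mesenchymal (48), signal (22), heat shock (6), squamous (8), fibroblast (9), endothelial (5), leukocyte (5) and antisense and miR-200 host (12) genes.

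Replicates of the same number may share an experiment day, which the labels do not state. After removal of group means, libraries of the same number correlated above 0.1 in every pair in FaDu for each treatment against its control, in SAS for RT and HT+RT against control, and in both for HT+RT against HT (r from 0.146 to 0.572), not for SAS HT against control, line comparisons or interactions. In the former, values with the number as a block are given wherever they moved a member across the adjusted p threshold. Beside other results they are given only in part. Some block values belong to SAS HT against control, line comparisons or interactions, where same-numbered libraries did not all correlate above 0.1. Alternatives were DESeq2 1.42.0, RLE factors, all 8 groups in 1 fit, no filter, a filter of 10 counts that every library must reach, the replicate block, each library left out and the adjusted p alone. Leaving out the FaDu libraries numbered 1, and leaving out each library in turn for the VIM and ZEB1 ratios between lines, were chosen after seeing the data, as was the use of the filter of 10 counts in every library for counts over members between the lines and over lists. Promoter windows were 250 bases before RefSeq starts, and 4 of the 10 members had an entry. FN1 and VIM are printed, ZEB1 and CDH2 are not, and CDH1, EPCAM, SNAI1, SNAI2, TWIST1 and GRHL2 had none. No column was left out, and control columns that repeat were used once.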

Additional observations from a re-analysis of the deposited data

Results flagged for a closer look

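Each of the results that follow was set aside because the change with heat differed between the lines in the edgeR test of that difference (FaDu minus SAS, log2, past the adjusted p of 0.05 and a difference of 1). The HT and HT+RT values share their controls and are given side by side, also where the HT+RT value is short of the difference of 1. None is a member of the group, and no explanation was tested.

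Among epithelial factors, KLF5 had -1.41 under HT (adjusted p = 4.3e-05) and -1.49 under HT+RT (9.4e-06), lower than control in FaDu HT (-0.71) and higher in SAS HT (0.72). GRHL1, a relative of GRHL2, had -1.09 (0.0059) and -1.06 (0.0074), at -0.28 in FaDu HT and 0.85 in SAS HT. OVOL1 had 1.32 (2.8e-05) and 1.39 (9e-06).

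Among transcription factors of the transition, SOX9 had 1.68 (0.0013) and 1.84 (0.00032), FOXC1 had 1.19 (0.00014) and 0.88 (0.0119), and FOXQ1 had -1.02 (0.02) and -1.02 (0.01), the HT value moving to -0.91 (0.06) without FaDu control library 3.

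For the mesenchymal gene COL1A1 the difference was -3.76 (1e-05) and -3.76 (2.9e-07). Among signals, IL6 had 2.30 (0.0013) and 2.70 (0.00011), HBEGF 1.24 (0.0087) and 1.26 (0.0054), and BMP4 -2.40 (0.0063) and -2.74 (0.0025). BMP4, with 6, 4 and 15 counts in FaDu control, lost the threshold without FaDu control library 3 (-1.79, 0.11 and -2.14, 0.059). These FaDu counts are short of the number set for every library. The BMP4 differences come from the usual filter alone, and nothing is read from them.

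Heat shock genes differed too: BAG3 by -1.39 (0.0029) and -0.86 (0.0202), HSPH1 by -1.25 (0.0071) and -1.09 (0.0013), and HSPA6 by 1.98 (0.042) and 1.73 (0.013). HSPA6 had 10, 10 and 7 counts in FaDu control and 16, 6 and 18 in SAS control, also short of the number set for every library. HSPA6 was thus tested with the usual filter alone, and nothing is read from its differences. For HT it lost the threshold without FaDu control library 1 (2.12, 0.061), 2 (2.11, 0.071) or 3 (1.72, 0.12), FaDu HT library 2 (1.97, 0.052) or 3 (1.84, 0.056), SAS control library 1 (1.82, 0.13) or 3 (1.63, 0.17), or SAS HT library 2 (1.93, 0.059), and for HT+RT without FaDu control library 3 (1.47, 0.051) or SAS control library 1 (1.56, 0.061) or 3 (1.37, 0.086).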

How the results depend on the processing

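Over the planned settings other than leaving out a library, 813 member values stayed on their side of the adjusted p threshold, 34 came to pass it and 6 no longer did. Over single libraries left out these were 1011, 21 and 17, and without the FaDu libraries numbered 1, chosen after seeing the data, 102, 6 and 1. No called direction turned.

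With the usual filter, which lets VIM and ZEB1 in through the line where they are high, the number of members altered moved by over 1.5 times, or to or from 0, as follows. With the adjusted p alone it was 2 in FaDu HT, 3 in FaDu HT+RT, 2 in SAS HT and 3 in SAS HT+RT against control, and between the lines 5 in control, 7 under RT and 7 under HT+RT, since the fold threshold was dropped. Smaller moves between the lines were 6 rather than 5 under HT at the adjusted p alone, 3 rather than 4 under RT by DESeq2 and with all 8 groups in 1 fit, 4 rather than 3 in control with no filter, and, with at least 10 counts in every library, 2 rather than 3 in control and 3 rather than 4 under HT+RT. For SAS RT against control it was 1 rather than 0 with no filter, with the replicate block, with all 8 groups in 1 fit and by DESeq2. With at least 10 counts in every library it was 2 between the lines under RT and 3 under HT, where VIM and ZEB1 were not tested. Leaving out single libraries gave 2 to 3 between the lines in control (2 without SAS control library 1, where EPCAM was short of the fold threshold), 3 to 4 under RT (3 without FaDu RT 2, SAS RT 1 or SAS RT 3), 4 to 5 under HT (4 without SAS HT 3) and 0 to 1 for the interaction of line with HT+RT (1 without SAS control library 1). The cause was not tested.

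VIM and ZEB1 are limited by depth. VIM could be tested in 11 of the 15 comparisons and ZEB1 in 10, and a ratio between lines for either carries the counting interval given with it. With 3 libraries a group, small differences such as those of CDH1 and FN1 with heat lie near the adjusted p threshold and cross it with the setting.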
